A study of Mus musculus with 2 samples.

Results

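Immune checkpoints are pairs of surface proteins that hold back lymphocytes, and 9 of their mouse genes were followed here through gliomas grown in the brain. The 5 receptor genes were Pdcd1 (PD-1), Ctla4 (CTLA-4), Lag3 (LAG-3), Havcr2 (TIM-3) and Tigit (TIGIT), and the 4 ligand genes were Cd274 (PD-L1), Pdcd1lg2 (PD-L2), Cd80 (B7-1) and Cd86 (B7-2). They were picked by symbol among the 32285 mouse genes listed. The rule itself uses no measured value, but the members were chosen with earlier results of these data known. Tumours came from GL261, a mouse glioma line implanted in the brain, and whole tissue with its infiltrating cells was taken 24 days later. There were 2 libraries with 1 per group: hosts labelled C57BlL6 WT (wild type), and hosts labelled Cacna1H-/- (knockout), a label that names the gene of the T-type calcium channel Cav3.2. Both groups carried the same GL261 implant. The number, age and sex of the animals pooled in a library are not stated in the labels, and the knockout was described only for the host.

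Checkpoint receptors sit on T cells and natural killer (NK) cells and dampen the signal of the antigen receptor. PD-1 is engaged by PD-L1 and PD-L2. CTLA-4 binds CD80 and CD86, the same ligands that the costimulatory receptor CD28 uses. LAG-3 binds MHC class II among other ligands, TIGIT binds the poliovirus receptor, and TIM-3 has several proposed ligands including galectin-9. Most of these receptors are induced by activation and persist on T cells under chronic stimulation. PD-L1 is induced by interferon gamma in tumour cells and myeloid cells.

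The library labelled wild type gave 3110 cells and the library labelled knockout 6575, with medians of 12522 and 11071 UMIs (unique molecular identifiers, each counted as 1 captured RNA molecule) per cell. A total of 21 barcodes occurred in both libraries, 7 of them among the kept cells. Cells were assigned to classes by the number of panel markers detected, and 15 classes were compared that each library filled with 50 cells or more; 9.39% and 7.59% of the cells met no gate and 4.47% and 6.27% met several. Levels are given as UPM, the UMIs of a gene per 1000000 mouse UMIs of a class, and a pair of values is in the order wild type label, knockout label. Ncr1, a marker of the NK gate, stood at 0.706 and 0.371 UPM in CD8 T-gated cells against 397 and 396 in NK-gated cells, and Cd3e at 472 and 592 against 0.943 and 2.45. Cacna1h, the gene the knockout label names, had 13 UMIs in the library labelled wild type and 168 in the one labelled knockout (0.250 and 1.67 UPM), so its level goes against the label and directions below are given by library label only. A 3' tag outside a deleted part would check nothing, and the labels do not say which part was deleted. The libraries also differed in sex-linked transcripts. Outside the tumour gate, 2056 of 2520 cells under the wild type label had Y-linked UMIs and no Xist, and 1 had Xist alone. Under the knockout label 912 of 5621 such cells had Y-linked UMIs alone and 3851 had Xist alone. Genotype label, library, animal and host sex cannot be told apart between libraries, so values are given also within the knockout label for both kinds of cell beside several results. With 1 library per group no difference has a replicate check, no p-value was computed, and all intervals are exact 95% intervals for counting error only.

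Positions are from GENCODE M21 on mm10. Cd274 (ENSMUSG00000016496, chromosome 19, 29367455 to 29388095, plus strand) and Pdcd1lg2 (ENSMUSG00000016498, chromosome 19, 29410919 to 29471161, plus strand) are neighbours that face the same way. Cd86 (ENSMUSG00000022901, minus strand, 36603869 to 36666081) and Cd80 (ENSMUSG00000075122, plus strand, 38455561 to 38496335) both lie on chromosome 16, and Tigit (ENSMUSG00000071552, minus strand, 43648867 to 43664146) lies further along it. Ctla4 (ENSMUSG00000026011, plus strand, 60887000 to 60915832) and Pdcd1 (ENSMUSG00000026285, minus strand, 94038305 to 94052553) are on chromosome 1, Lag3 (ENSMUSG00000030124, minus strand, 124904361 to 124911705) on chromosome 6 and Havcr2 (ENSMUSG00000020399, plus strand, 46454935 to 46481255) on chromosome 11. Cd274 overlaps the antisense gene AC119228.1, and Pdcd1lg2 overlaps the antisense gene A930007I19Rik. The sources used here do not say whether counting used strand, so reads of these overlaps are uncertain.

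Promoter sequences of 7 members were found in the RefSeq set for GRCm38.p6, spanning 250 bases before to 50 after the start that RefSeq annotates. For Ctla4 and Cd80 this start lies inside the GENCODE interval given above and not at its first base. The sequences of the adjacent PD-1 ligand genes are shown because these neighbours differed in their distribution over classes. Those of Havcr2 and Cd80 are shown because each held a match to the AP-1 motif TGANTCA, which is in capitals.
Cd274: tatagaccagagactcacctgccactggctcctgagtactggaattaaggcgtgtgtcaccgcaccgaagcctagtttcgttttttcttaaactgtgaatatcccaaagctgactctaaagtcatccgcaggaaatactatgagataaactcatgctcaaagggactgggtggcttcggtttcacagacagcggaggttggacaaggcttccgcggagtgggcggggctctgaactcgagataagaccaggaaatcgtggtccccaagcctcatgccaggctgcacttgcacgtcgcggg
Pdcd1lg2: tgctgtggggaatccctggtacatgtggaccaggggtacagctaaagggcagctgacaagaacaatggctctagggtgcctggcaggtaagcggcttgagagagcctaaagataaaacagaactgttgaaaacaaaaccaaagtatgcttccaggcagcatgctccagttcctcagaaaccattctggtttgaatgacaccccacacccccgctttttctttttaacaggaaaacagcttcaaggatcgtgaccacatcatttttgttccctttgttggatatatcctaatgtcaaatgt
Havcr2: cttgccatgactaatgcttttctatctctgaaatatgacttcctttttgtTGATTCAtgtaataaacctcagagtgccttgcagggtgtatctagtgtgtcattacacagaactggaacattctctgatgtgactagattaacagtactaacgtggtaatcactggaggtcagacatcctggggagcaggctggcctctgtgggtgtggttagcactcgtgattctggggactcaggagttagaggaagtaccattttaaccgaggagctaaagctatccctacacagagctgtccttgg
Cd80: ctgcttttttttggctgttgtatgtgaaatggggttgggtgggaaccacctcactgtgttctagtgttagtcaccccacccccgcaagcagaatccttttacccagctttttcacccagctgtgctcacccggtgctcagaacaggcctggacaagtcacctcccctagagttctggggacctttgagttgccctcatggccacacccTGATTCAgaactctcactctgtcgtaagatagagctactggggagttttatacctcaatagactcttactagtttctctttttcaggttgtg
These windows are chr19:29367188-29367487 for Cd274, chr19:29410669-29410968 for Pdcd1lg2, chr11:46454681-46454980 for Havcr2 and chr16:38458683-38458982 for Cd80, all on the plus strand. The AP-1 matches TGATTCA began 200 bases before the RefSeq start of Havcr2 and 42 bases before that of Cd80, and 7.81% of 32851 promoters of the same length hold this motif on either strand. The core of the interferon-stimulated response element (GAAA, any 2 bases, GAAA) is in 3.44% of those promoters and the gamma-activated site TTCNNNGAA in 8.30%, and neither was found in any of the 7 member windows. These letters are therefore absent from these 300 bases, which says nothing of sites elsewhere.

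Levels are compared within a gene and not between genes. The plot of levels by class and library shows the 9 genes in the 15 classes.

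**Figure D1:**
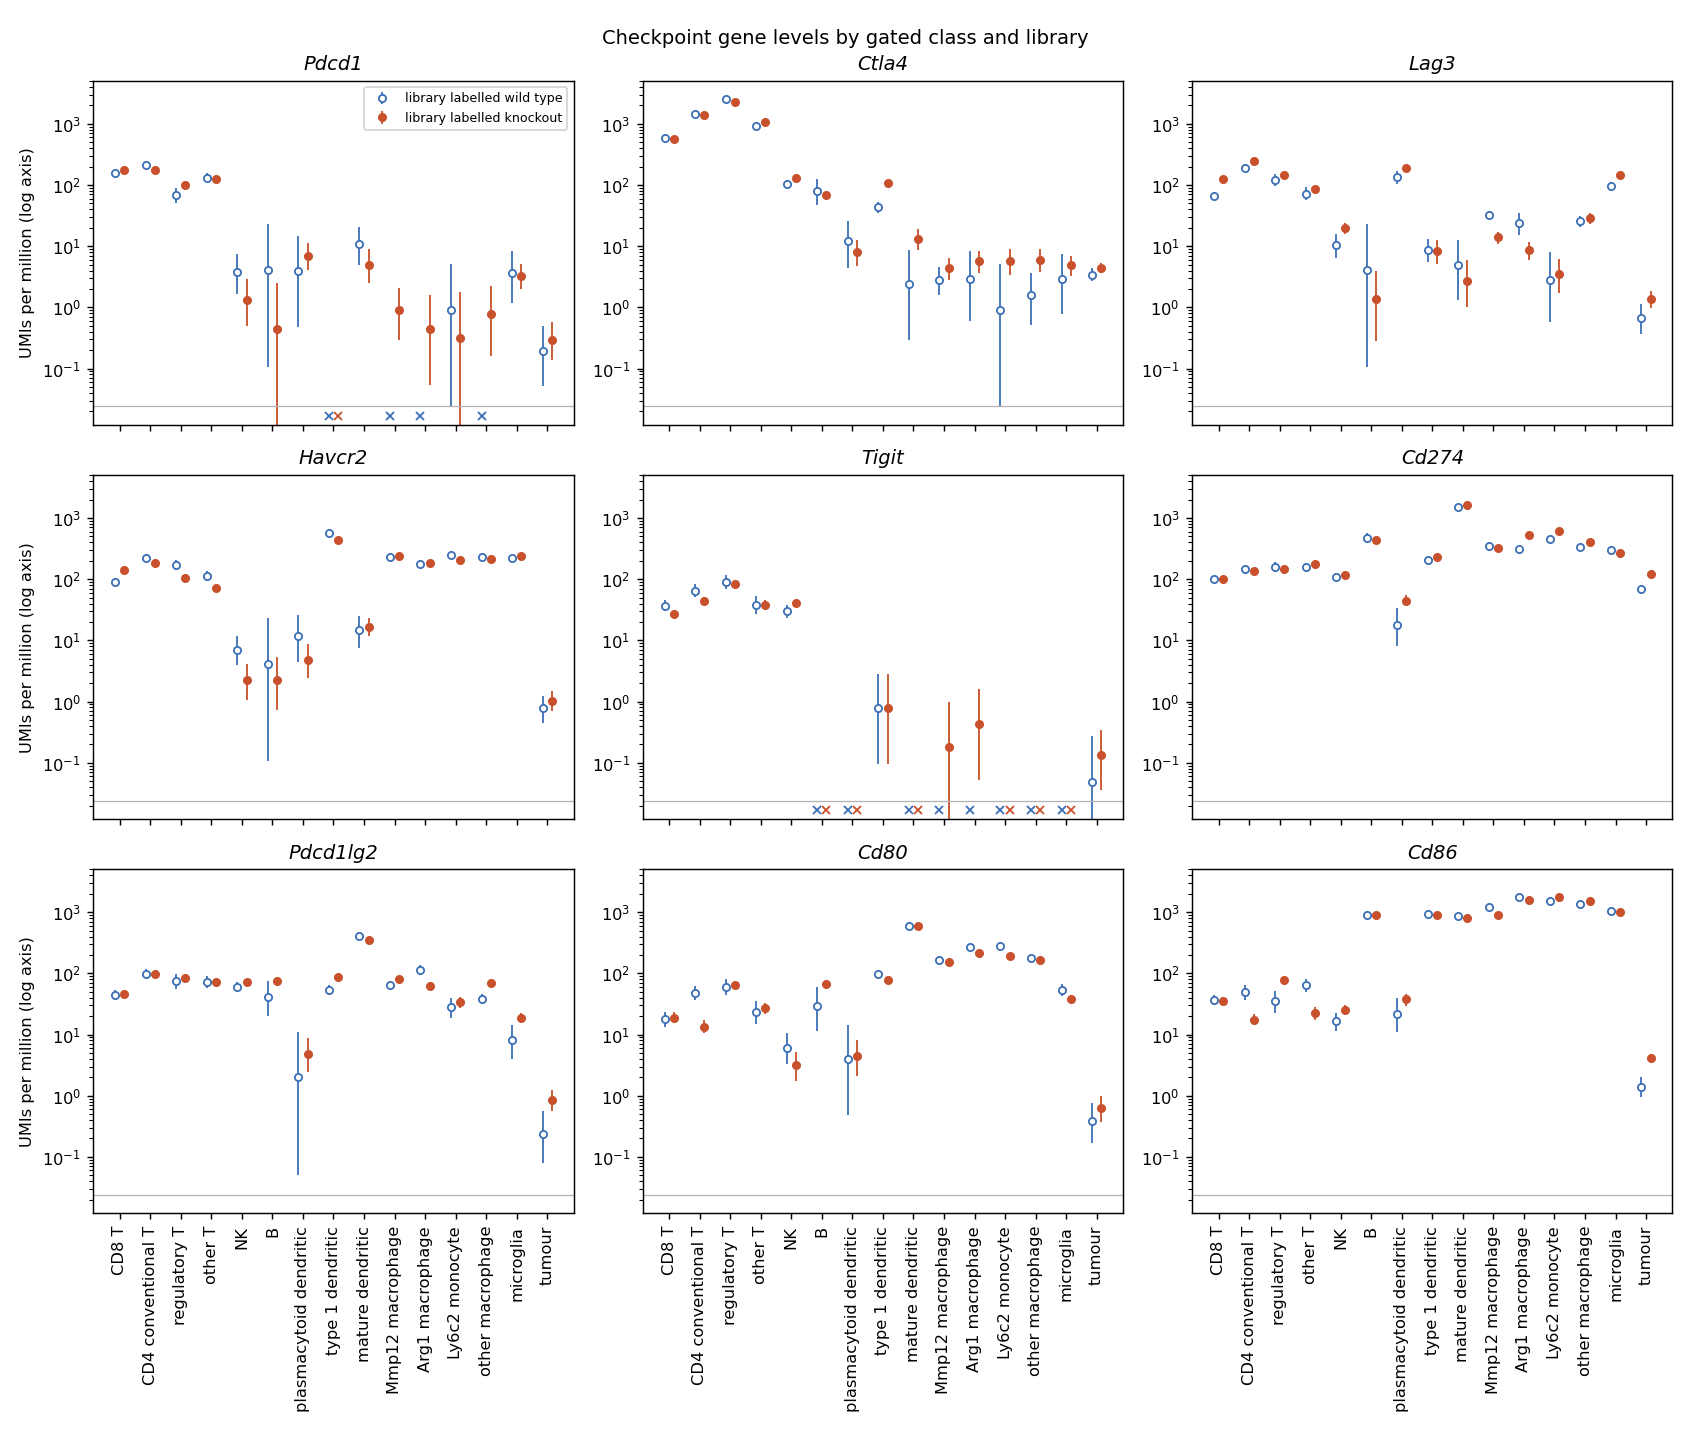
Level of each checkpoint gene in UPM (log axis) in 15 gated classes; open blue points are the library labelled wild type, filled orange points the library labelled knockout, bars are exact Poisson 95% intervals, and crosses under the grey line mark 0 UMIs. Pdcd1, Ctla4 and Tigit are highest in T cell gates, Havcr2 peaks in type 1 dendritic-gated cells, and Cd274, Pdcd1lg2 and Cd80 peak in mature dendritic-gated cells.

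Pdcd1, the gene of PD-1, was a T cell gene in this tissue: T-gated cells held 89.7% and 86.8% of its UMIs. It was highest in CD4 conventional T-gated cells (213 UPM, 187 to 242) under the wild type label, followed by CD8 T-gated cells (157, 142 to 172) and other T-gated cells (131, 110 to 156), whose intervals overlapped, and then by regulatory T-gated cells (68.1, 50 to 90.5). Under the knockout label the CD4 conventional and CD8 values were both 179 and their intervals overlapped, other T-gated cells stood at 125 and regulatory T-gated cells again were lowest of these (98.9). In NK-gated cells Pdcd1 had 8 UMIs in 1 cell of the first library and 6 UMIs in 3 cells of the second. Tumour-gated cells, which serve as the background of free RNA for the receptors, had a Pdcd1 UMI in 0.678% and 0.839% of cells at median depths of 31922 and 27253 UMIs, against 47.0% and 59.6% of CD8 T-gated cells at 8586 and 9664.

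Ctla4 was highest in regulatory T-gated cells, the Foxp3-positive CD4 T cells that use CTLA-4 to strip CD80 and CD86 from antigen-presenting cells. Its level there was 2568 (2450 to 2690) and 2275 (2220 to 2331) UPM, and 97.2% and 98.7% of the cells had a UMI. CD4 conventional T-gated cells followed at 1425 and 1412, other T-gated cells at 908 and 1052, CD8 T-gated cells at 578 and 565, and NK-gated cells at 105 and 128. This order held in both libraries, with no overlap of intervals between these classes. Type 1 dendritic-gated cells also held Ctla4, at 43.1 and 108 UPM, in 31.5% and 56.6% of cells. Their summed T cell panel stood at 5.14 and 6.73 UPM. Tumour-gated cells had Ctla4 at 3.43 and 4.4 UPM, in 10.8% and 12.7% of cells, and in 0.847% and 0.844% when every cell was thinned to 2000 UMIs; type 1 dendritic-gated cells stood at 8.06% and 12.1% at that depth.

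Lag3 was spread over more lineages than Pdcd1: T-gated cells held 46.3% and 54.0% of its UMIs, microglia-gated cells 11.1% and 18.6%, dendritic-gated cells 7.81% and 9.63% and macrophage-gated cells 23.4% and 5.02%. The highest levels were in CD4 conventional T-gated cells (191 and 243 UPM). Plasmacytoid dendritic-gated cells, the type I interferon producers, stood at 134 (104 to 170) and 187 (170 to 206) and had a Lag3 UMI in 70.9% and 79.6% of cells. Under the wild type label their interval overlapped that of regulatory T-gated cells (122, 97.0 to 151). The microglia gate is meant for the resident macrophages of the brain, but only 38 of 100 and 164 of 394 gated cells also fell in the microglia cluster. Microglia-gated cells had Lag3 at 96.6 and 144 UPM in 49.0% and 71.8% of cells. Their intervals (80.8 to 114 and 135 to 154) lay above those of CD8 T-gated cells (57.2 to 76.6 and 115 to 134) in both libraries. The summed T cell panel in those microglia-gated cells was 5.81 and 9.65 UPM. Mature dendritic-gated cells had Lag3 in 4.55% and 2.40% of cells and tumour-gated cells in 2.37% and 3.98%.

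Havcr2 was mainly a myeloid gene here, with 12.5% and 22.2% of its UMIs in T-gated cells. Type 1 dendritic-gated cells, which cross-present antigen to CD8 T cells, were highest at 575 UPM (546 to 605) and 433 (408 to 460), with a UMI in 97.6% and 97.0% of cells. The macrophage, monocyte and microglia gates lay between 176 and 246 UPM in both libraries. CD4 conventional T-gated cells reached the same range (218 and 182), and CD8 T-gated cells were lower (91.4 and 140). Dendritic subsets were far apart: mature dendritic-gated cells had 14.6 and 16.7 UPM and plasmacytoid dendritic-gated cells 12 and 4.84.

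Tigit had the narrowest distribution. Regulatory T-gated cells were highest at 89.8 (68.8 to 115) and 84.9 (74.5 to 96.3) UPM, and NK-gated cells reached 29.7 and 41.3, with intervals that overlapped those of the other T-gated cells outside the 3 subset gates (38.2 and 38.1) in both libraries. No Tigit UMI was found in B, plasmacytoid dendritic, mature dendritic, Ly6c2 monocyte, other macrophage or microglia-gated cells of either library; for microglia, 0 of 100 and 0 of 394 cells allow shares of up to 3.00% and 0.761% of cells with a UMI.

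Among the ligands, Cd274 was found in every class and stood out in mature dendritic-gated cells, the Ccr7-positive state that migrates to lymph nodes. They held 1502 (1419 to 1588) and 1638 (1585 to 1692) UPM, in 98.9% and 98.1% of cells. Ly6c2 monocyte-gated cells (458 and 610) and B-gated cells (471 and 444) came next under the wild type label with overlapping intervals. Other myeloid gates lay between 202 and 530 UPM, T and NK gates between 99.0 and 174, and plasmacytoid dendritic-gated cells were lowest at 18.0 and 44.8. Tumour-gated cells had 68.9 and 121 UPM.

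Pdcd1lg2, the neighbour of Cd274 on chromosome 19, was also highest in mature dendritic-gated cells, at 402 (360 to 448) and 356 (331 to 381) UPM. It was lowest in tumour-gated cells, with 5 UMIs in 590 cells and 26 in 954, or 0.241 and 0.861 UPM. Microglia-gated cells stood in the middle of the 15 classes for Cd274 (298 and 270 UPM), whereas for Pdcd1lg2 (7.99 and 18.5 UPM) only plasmacytoid dendritic-gated and tumour-gated cells were lower. T and NK gates held Pdcd1lg2 between 44.5 and 98.8 UPM, above the tumour-gated background, with a UMI in 30.1% and 36.2% of CD8 T-gated cells against 0.678% and 1.89% of tumour-gated cells.

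The CTLA-4 ligands differed in where they were found. Cd80 was highest in mature dendritic-gated cells (594 and 591 UPM) and was next highest in Ly6c2 monocyte-gated (279 and 195) and Arg1 macrophage-gated cells (267 and 217), whose intervals overlapped. Cd86 was high across antigen-presenting classes: Arg1 macrophage-gated cells held 1775 and 1580 UPM, Ly6c2 monocyte-gated cells 1536 and 1759, microglia-gated cells 1061 and 1017, B-gated cells 909 and 909 and mature dendritic-gated cells 863 and 794. So mature dendritic-gated cells ranked first of the 15 classes for Cd80, and below every macrophage gate for Cd86. Tumour-gated cells had 8 and 19 Cd80 UMIs and 29 and 124 Cd86 UMIs in all. In cells thinned to 5000 UMIs, all 4 ligands were detected together in 44.4% (33.4 to 55.9) and 35.7% (29.0 to 42.9) of mature dendritic-gated cells, and in at most 9.41% of any macrophage, microglia, B or type 1 dendritic gate.

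The study's comparison is that of the library labelled knockout with the library labelled wild type. Of 93 pairs of a member and a class with at least 50 UMIs over both libraries, 17 were higher under the knockout label by 1.5-fold or more and 8 were lower by as much. Among 38 receptor pairs these were 5 and 4, and among 55 ligand pairs 12 and 4. Over all genes measured in a class, the share that much higher ran from 4.67% (CD8 T-gated) to 13.3% (B-gated). The share that much lower ran from 4.01% to 12.1% in the same classes, and each class's own shares are given with its results below. In 11 of the 25 pairs that far apart the size held under every alternative processing that gave a value, and in 19 the direction did.

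**Figure D2:**
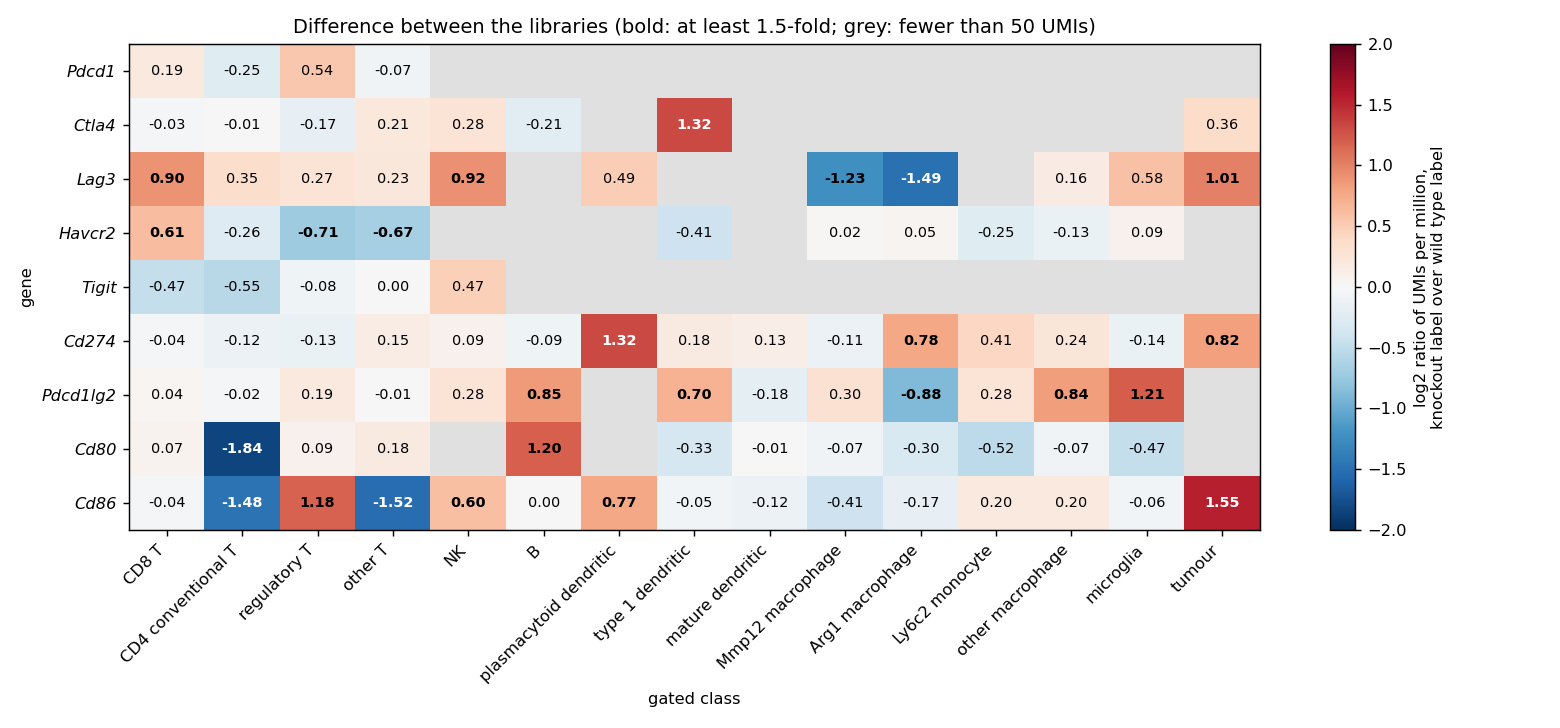
Log2 ratio of UPM, knockout label over wild type label, for each gene and gated class with at least 50 UMIs over both libraries; red is higher and blue lower under the knockout label, bold numbers are 1.5-fold or more apart and grey cells were not measured. Lag3 is higher in CD8 T-gated cells (0.90) and lower in Mmp12 macrophage-gated cells (-1.23), and Cd274 is higher in tumour-gated (0.82) and Arg1 macrophage-gated cells (0.78).

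In CD8 T-gated cells, the cytotoxic T cells of the tumour, 2 of 5 receptors were higher by 1.5-fold or more in the second library, where 4.67% of the 9018 genes measured in the class were that much higher and 4.01% that much lower. Lag3 stood at 66.4 UPM in 279 cells and at 124 in 448 cells, a ratio of 1.87 (1.58 to 2.21). The share of CD8 T-gated cells with a Lag3 UMI was 31.9% and 50.7%, and 11.5% and 19.0% at 2000 UMIs per cell. Havcr2 stood at 91.4 and 140 UPM, a ratio of 1.53 (1.33 to 1.77). Pdcd1 (157 and 179; ratio 1.14, 1.02 to 1.28) and Ctla4 (578 and 565; 0.977, 0.920 to 1.04) were close in both libraries, and Tigit was lower (37.1 and 26.7; 0.720, 0.556 to 0.935) without reaching 1.5-fold. The Havcr2 ratio was under 1.5 in 4 of the 10 alternatives, the lowest being 1.25 with Xist-positive cells alone. The ligands of the same cells did not reach 1.5-fold: Cd274 stood at 102 and 99.0 UPM and Pdcd1lg2 at 44.5 and 45.6.

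Within the library labelled knockout, CD8 T-gated cells with Y-linked UMIs and those with Xist differed from each other in these receptors. Pdcd1 stood at 269 UPM (243 to 297) in 123 Y-linked-positive cells and at 143 (131 to 156) in 284 Xist-positive cells, against 157 in the library labelled wild type. Havcr2 stood at 205 and 114 in those cells against 91.4, and Ctla4 at 741 and 496 against 578. So for Pdcd1 and Ctla4 the wild type level lay between both kinds of cell of the other library. Lag3 was above the wild type level in both: 153 in Y-linked-positive cells (ratio 2.30, 1.88 to 2.81) and 109 in Xist-positive cells (1.64, 1.37 to 1.96), against 66.4. Whether these kinds of cell mark different animals was not tested. In CD4 conventional T-gated cells the same split gave closer values, with Pdcd1 at 211 and 177, Ctla4 at 1461 and 1417 and Lag3 at 223 and 255.

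**Figure D3:**
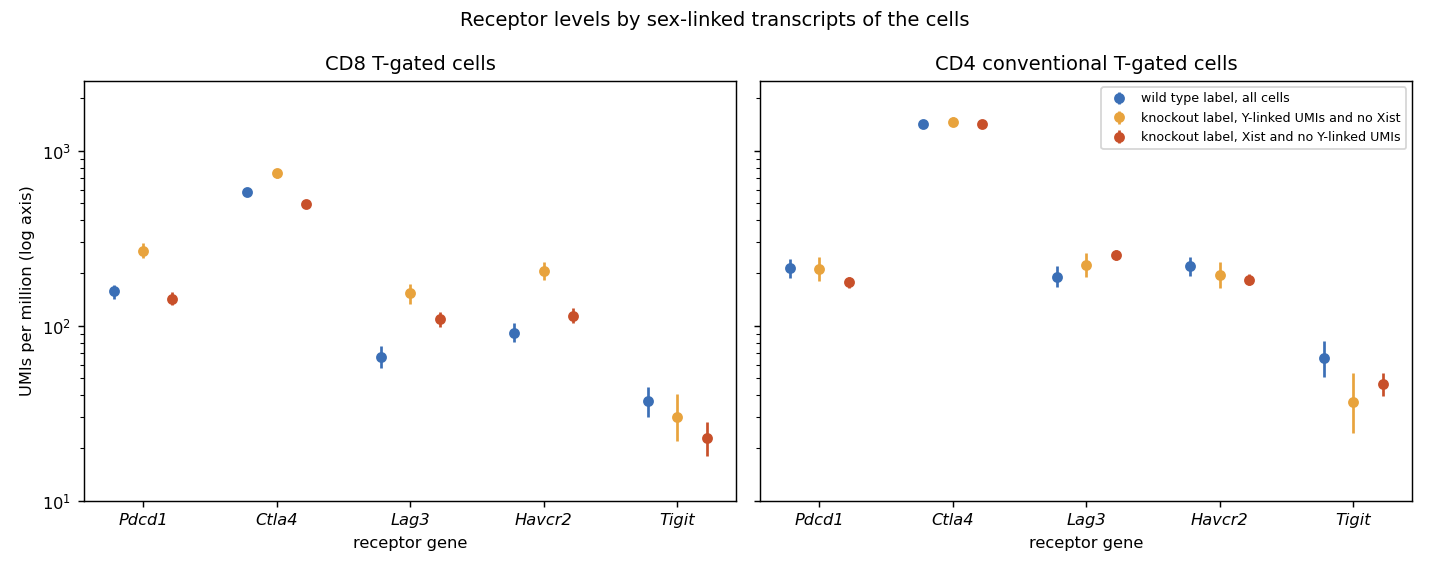
Receptor levels in UPM (log axis) in CD8 T-gated and CD4 conventional T-gated cells of the wild type label (blue), of the knockout label with Y-linked UMIs and no Xist (yellow) and of the knockout label with Xist and no Y-linked UMIs (orange); bars are exact Poisson 95% intervals. In CD8 T-gated cells Pdcd1 is 269 in Y-linked-positive and 143 in Xist-positive cells of 1 library.

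The CD8 T-gated cells that held 1 receptor more often held others. At 5000 UMIs per cell, Lag3 was detected in 43.0% of Pdcd1-positive and 12.9% of Pdcd1-negative cells under the wild type label, and in 48.6% and 23.4% under the knockout label. Havcr2 was detected in 42.0% and 13.6%, and in 47.5% and 21.3%. Tigit was closer between these cells, at 22% (14.3 to 31.4) and 17% (11.3 to 24.1) under the wild type label. At least 2 receptors were detected in 51.0% (44.6 to 57.4) of 247 cells and in 58.4% (53.5 to 63.1) of 418 cells, and at least 3 in 32.0% and 33.5%, so the intervals overlap between libraries. In a split chosen after the values were seen, cells with Tcf7, a transcription factor of progenitor T cells, had Havcr2 in 10.2% and 4.72% of cells against 29.8% and 42.0% of cells without a Tcf7 UMI, and Pdcd1 in 13.6% and 24.5% against 48.9% and 49.0%. Lag3 (11.9% and 15.1% against 29.3% and 40.7%) and Ctla4 (49.2% and 54.7% against 69.1% and 75.0%) were also lower with Tcf7 in both libraries, with intervals that met or overlapped under the wild type label, whereas Tigit was alike under the wild type label (18.6% against 19.1%) and at 6.60% against 14.7% under the knockout label. For Tox, a transcription factor of T cell exhaustion, Lag3 was detected in 36% and 39.3% of Tox-positive and in 13.9% and 27.0% of Tox-negative CD8 T-gated cells. Pdcd1 (49.6% and 45.1% against 31.1% and 39.7%) and Tigit (20.8% and 15.6% against 17.2% and 8.62%) had higher shares in Tox-positive cells too. The intervals overlapped for Tigit in both libraries, and for Pdcd1 and Lag3 under the knockout label (Lag3 33.2 to 45.8 and 20.6 to 34.3). Havcr2 was at 28.0% against 22.1% under the wild type label and 29.5% against 36.8% under the knockout label, and Ctla4 at 68.8% against 59.8% and 68.9% against 71.3%, so the direction for these receptors differed between the libraries.

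**Figure D4:**
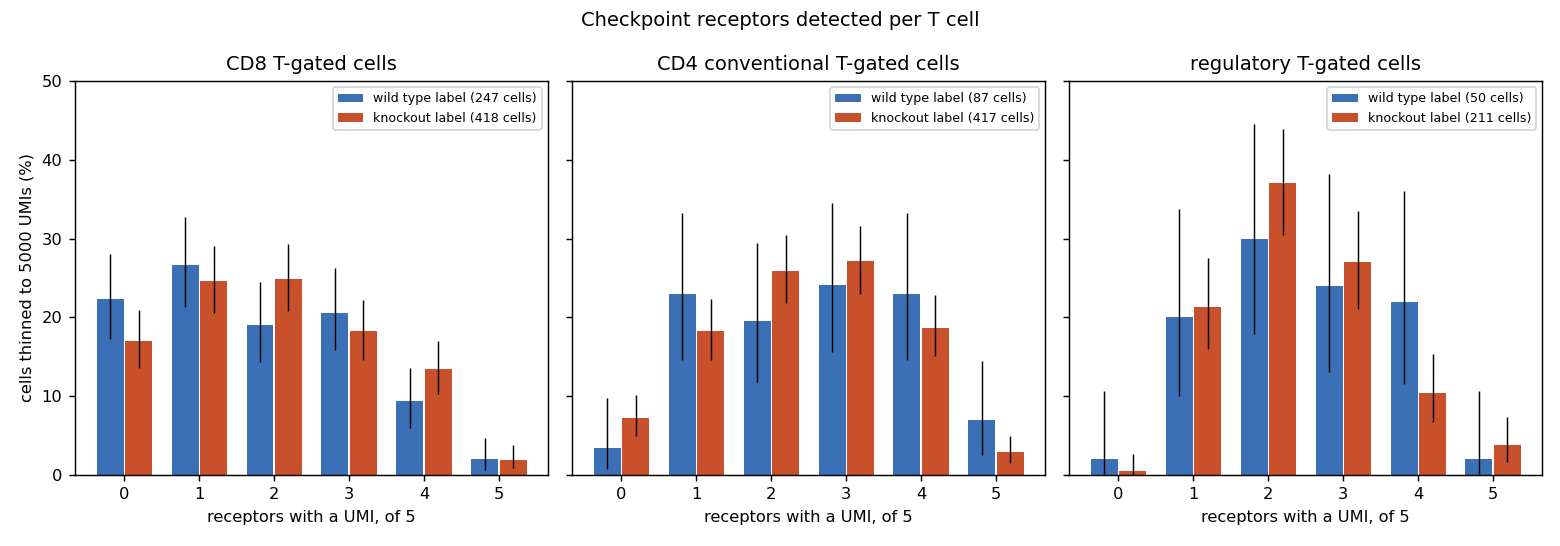
Share of cells (%) by the number of the 5 receptors with a UMI, after thinning each cell to 5000 UMIs, in CD8 T-gated, CD4 conventional T-gated and regulatory T-gated cells of the wild type label (blue) and knockout label (orange); bars are exact binomial 95% intervals. Cells with none of the 5 make up 22.3% and 17% of CD8 T-gated cells and 2% and 0.474% of regulatory T-gated cells.

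Regulatory T-gated cells differed in Havcr2 in the other direction: it stood at 172 UPM in 71 cells and at 106 in 239 cells, with a ratio of 0.613 (0.494 to 0.764). It was the only receptor of 5 past 1.5-fold there, where 5.93% of genes were that much lower and 7.80% that much higher. The Xist-positive and Y-linked-positive cells of the knockout label both lay below the wild type level, at 108 and 103. Pdcd1 was higher (68.1 and 98.9; ratio 1.45, 1.06 to 2.02), and Ctla4 (0.886, 0.841 to 0.934), Lag3 (1.21, 0.954 to 1.55) and Tigit (0.946, 0.713 to 1.27) were nearer to each other. Other T-gated cells showed lower Havcr2 too (113 and 71.0; 0.629, 0.502 to 0.793), where 6.85% of genes were higher and 6.93% lower by that much, but with doublets removed its log2 ratio was -0.34 and in clusters it was 0.18. In CD4 conventional T-gated cells no receptor reached 1.5-fold, where 6.69% of genes were that much higher and 6.24% that much lower; Lag3 had the highest ratio (1.27, 1.10 to 1.48) and Tigit the lowest (0.682, 0.520 to 0.904).

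The NK-gated cells held Lag3 at 10.4 and 19.6 UPM, a ratio of 1.89 (1.18 to 3.17) from 22 and 88 UMIs. In cells thinned to 5000 UMIs the share with a Lag3 UMI was 5.70% (2.64 to 10.5) and 5.78% (3.81 to 8.35). In that class 8.90% of genes were higher by 1.5-fold or more and 9.09% lower. Within the knockout label the Xist-positive NK-gated cells stood at 21.4 and the Y-linked-positive ones at 10.9. Tigit (29.7 and 41.3; ratio 1.39) and Ctla4 (105 and 128; 1.21) were nearer. In the microglia gate Lag3 was just under the 1.5-fold limit at 1.49 (1.24 to 1.80), from 96.6 to 144 UPM, and it was 150 in Y-linked-positive and 137 in Xist-positive cells of the knockout label. In plasmacytoid dendritic-gated cells it was 134 and 187 (1.40, 1.08 to 1.84), with 183 and 187 in those 2 kinds of cell.

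Macrophages went the other way for Lag3. Mmp12 macrophage-gated cells stood at 32.5 and 13.9 UPM (0.426, 0.322 to 0.561), where 7.97% of genes were lower by 1.5-fold or more and 5.45% higher. Arg1 macrophage-gated cells stood at 23.9 and 8.51 (0.357, 0.210 to 0.615), where 8.41% were lower and 10.9% higher. In these 2 classes a summed marker panel moved with Lag3. The 5 type 1 dendritic markers summed to 513 and 143 UPM in Mmp12 macrophage-gated cells, with 0 of 5 at 0 UMIs. In Arg1 macrophage-gated cells they summed to 131 and 60.5, with 2 and 0 of 5 at 0. This sum was not particular to the type 1 dendritic gate (2133 and 2108). Microglia-gated cells had 653 and 373 and tumour-gated cells 110 and 117. The part of these markers in the result was not tested. Type 1 dendritic-gated cells themselves held Lag3 at 8.70 and 8.31 UPM. In other macrophage-gated cells that panel stood at 358 and 154 UPM and Lag3 at 25.5 and 28.4. Taking the macrophage classes from clusters turned the Arg1 log2 ratio from -1.49 to 0.43, and among Y-linked-positive cells of both libraries the Mmp12 log2 ratio was -0.05, with 7 such cells under the knockout label.

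Type 1 dendritic-gated cells had the highest receptor ratio: Ctla4 stood at 43.1 UPM in 124 cells and at 108 in 99 cells, a ratio of 2.50 (1.99 to 3.15), where 6.25% of genes were higher by 1.5-fold or more and 5.93% lower. It came with the Xist-positive cells of the knockout label, at 133 UPM in 74 cells, while the 20 Y-linked-positive cells stood at 31.9. Havcr2 was lower in the same class (575 and 433; 0.754, 0.696 to 0.816) and Pdcd1lg2 was higher (53.8 and 87.1; 1.62, 1.3 to 2.02), with 59.9 in the Y-linked-positive and 93.0 in the Xist-positive cells of the knockout label. Cd274, Cd80 and Cd86 had ratios of 1.14, 0.798 and 0.965.

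In mature dendritic-gated cells, which held the highest levels of Cd274, Pdcd1lg2 and Cd80, no ligand was 1.5-fold apart, where 8.62% of genes were that much higher and 7.59% lower. Cd274 stood at 1502 and 1638 (ratio 1.09, 1.02 to 1.16), Pdcd1lg2 at 402 and 356 (0.885, 0.777 to 1.01), Cd80 at 594 and 591 (0.996, 0.897 to 1.11) and Cd86 at 863 and 794 (0.920, 0.843 to 1.01). From the list of costimulatory genes Cd40, the receptor through which helper T cells license dendritic cells, stood at 141 and 335 UPM in this class (2.38, 1.95 to 2.92), and Tnfrsf9 at 341 and 198 (0.581, 0.499 to 0.677). The summed monocyte/macrophage markers of this class moved from 63.1 to 205 UPM, with 3 and 1 of 8 at 0 UMIs, and their part in the Cd40 value was not tested.

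Arg1 macrophage-gated cells separated the PD-1 ligands. Cd274 was higher under the knockout label, at 309 UPM in 91 cells and 530 in 347 (1.71, 1.52 to 1.93). Pdcd1lg2 was lower, at 115 and 62.2 (0.543, 0.437 to 0.678). Cd274 stood at 475 in Y-linked-positive and 518 in Xist-positive cells of the knockout label, both above 309, whereas Pdcd1lg2 was 9.60 in 41 Y-linked-positive and 72.6 in 270 Xist-positive cells. Cd80 (267 and 217; 0.812) and Cd86 (1775 and 1580; 0.890) were nearer. Ly6c2 monocyte-gated cells also held more Cd274 (458 and 610; 1.33, 1.20 to 1.47) and less Cd80 (279 and 195; 0.699, 0.608 to 0.804), neither past 1.5-fold, where 7.14% of genes were that much higher and 8.21% lower. Cd86 was lower in Mmp12 macrophage-gated cells (1207 and 908; 0.753, 0.725 to 0.781) and higher in other macrophage-gated cells (1350 and 1550; 1.15, 1.10 to 1.19).

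In microglia-gated cells Pdcd1lg2 was 7.99 and 18.5 UPM (2.31, 1.25 to 4.77) from 11 and 113 UMIs, where 8.72% of genes were higher by 1.5-fold or more and 7.08% lower. With 1 more marker per gate, or with classes from clusters, this pair had too few UMIs for a value. Cd274, Cd80 and Cd86 had ratios of 0.907, 0.722 and 0.959. The other macrophage-gated cells had Pdcd1lg2 at 38.7 and 69.6 (1.80, 1.45 to 2.24), where 7.26% of genes were higher and 5.30% lower, but 74 of the 269 UMIs under the knockout label came from 1 cell, and without the top cells the log2 ratio was 0.53. Within the knockout label Pdcd1lg2 stood at 15 in those with Y-linked UMIs and at 97.4 in those with Xist, on either side of the wild type level. In B-gated cells Cd80 (28.9 and 66.3; 2.29, 1.09 to 5.80) and Pdcd1lg2 (41.3 and 74.4; 1.80, 0.955 to 3.83) rested on 7 and 10 UMIs under the wild type label, where 13.3% of genes were higher and 12.1% lower. Plasmacytoid dendritic-gated cells had Cd274 at 18.0 and 44.8 (2.50, 1.26 to 5.61) from 9 and 102 UMIs and Cd86 at 22 and 37.4 (1.70, 0.905 to 3.54), where 8.56% were higher and 8.44% lower; with 1 more marker needed for the gate the Cd274 log2 ratio was -0.60. The type 1 dendritic panel of this gate moved from 134 to 393 UPM, with 3 and 0 of 5 markers at 0 UMIs. The T cell panel moved from 5.99 to 20.2, with 2 and 0 of 5 at 0. The mature dendritic panel moved the other way, from 47.9 to 24.2, with 2 and 1 of 6 at 0. The part of these panels was not tested. Within the knockout label Cd86 was 18.6 in Y-linked-positive and 41.5 in Xist-positive plasmacytoid dendritic-gated cells.

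The ligands in lymphocyte gates rested on few cells. Cd86 stood at 34.8 and 78.6 UPM in regulatory T-gated cells (2.26, 1.48 to 3.60), where 1 cell of the knockout label held 70 of 224 UMIs. Within the knockout label it was 91.2 UPM in the 185 Xist-positive cells (2.62, 1.71 to 4.19) and 4.89, from 2 UMIs, in the 35 Y-linked-positive cells, which lay below the wild type level (0.141, 0.0161 to 0.566). It stood at 63.7 and 22.3 in other T-gated cells (0.350, 0.248 to 0.495), where 1 cell of the wild type label held 38 of 65, and the ratio without the top cells was 0.754. In NK-gated cells it stood at 16.5 and 25 (1.51, 1.03 to 2.28), where 1 cell of the knockout label held 66 of 112. The NK ratio was 1.20 without the top cells and 1.05 with 1 more marker needed for the gate, and it was under 1.5 in 5 of 9 alternatives. Its Xist-positive cells of the knockout label stood at 29.4 and its Y-linked-positive cells at 4.37, from 2 UMIs. The summed monocyte/macrophage markers moved from 56.5 to 96.8 UPM in regulatory T-gated and from 33.9 to 52.0 in NK-gated cells. In other T-gated cells, where Cd86 was lower, this panel moved from 47.1 to 63.1. The mature dendritic panel moved from 99.9 to 78.2 in regulatory T-gated cells, and the microglia panel from 32.1 to 25.9 in NK-gated cells. The part of these panels was not tested. In CD4 conventional T-gated cells both CTLA-4 ligands were lower, Cd80 at 48.0 and 13.5 (0.280, 0.192 to 0.411) and Cd86 at 48.9 and 17.6 (0.360, 0.253 to 0.516). Cd80 was found in 17 of 124 and 43 of 481 of these cells. Their summed monocyte/macrophage markers stood at 75.2 and 72.9 UPM, with 2 and 0 of 8 at 0 UMIs. Summed type 1 dendritic markers were lower, at 29.9 and 9.73, with 2 and 0 of 5 at 0. Summed mature dendritic markers were higher, at 114 and 139, with 1 and 1 of 6 at 0. The part of these markers in the result was not tested.

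Tumour-gated cells held more Cd274 under the knockout label: 68.9 UPM (65.4 to 72.6) in 590 cells and 121 (118 to 125) in 954 cells, a ratio of 1.76 (1.66 to 1.87). A UMI was found in 49.7% and 71.4% of these cells, and in 11.2% and 16.2% at 2000 UMIs per cell. In this class 12.9% of 13537 genes were higher by 1.5-fold or more and 8.04% lower. When cells were thinned to 5000 UMIs or weighted alike the ratio was 1.48 in each case. With Y-linked-positive cells alone it was 4.23, but this rests on 16 cells and 86 UMIs under the knockout label. Those 16 cells held Cd86 at 22.4 UPM, against 4.11 in all tumour-gated cells of that label. What kind of cell they are was not tested. Cd86 (1.40 and 4.11 UPM, from 29 and 124 UMIs) and Lag3 (0.676 and 1.36, from 14 and 41) were also past 1.5-fold. The monocyte/macrophage panel moved with them from 10.9 to 22.2 UPM, with 0 of 8 markers at 0 UMIs. The T cell panel moved from 4.44 to 7.12, with 0 of 5 at 0. Other panels moved the other way, among them microglia (107 to 34.2), mature dendritic (252 to 140) and oligodendrocyte (148 to 45.2). The part of any panel was not tested.

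Genes of the interferon gamma pathway that leads to PD-L1 were measured in the same tumour-gated cells. Of 11 listed genes all were measured and 2 were higher by 1.5-fold or more, where 12.9% of all genes of the class were that much higher: Socs1, a feedback inhibitor of cytokine signalling (80.3 and 157 UPM; 1.96, 1.85 to 2.07), and the chemokine Cxcl10 (610 and 1154; 1.89, 1.85 to 1.93). Irf1, a transcription factor induced by interferons, stood at 199 and 286 UPM (1.44, 1.39 to 1.49). None was 1.5-fold lower, and the median log2 ratio of the list was 0.29 against 0.02 over all genes measured.

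The size and direction of the Cd274 difference varied between clusters of tumour-gated cells found without the 9 genes. In cluster 5, led by Gpnmb, Nkain2 and Gjc3, Cd274 stood at 247 and 177 UPM (0.716, 0.614 to 0.838), and this cluster held 7.46% and 36.6% of tumour-gated cells. In cluster 2 the values were 101 and 111, a ratio of 1.10. In cluster 9, led by Cdh18, Cadm2 and H19, they were 51.6 and 120 (2.33, 2.03 to 2.68), with 38.5% and 9.85% of the cells, and in cluster 15 34.0 and 71.9 (2.11, 1.77 to 2.52).

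**Figure D5:**
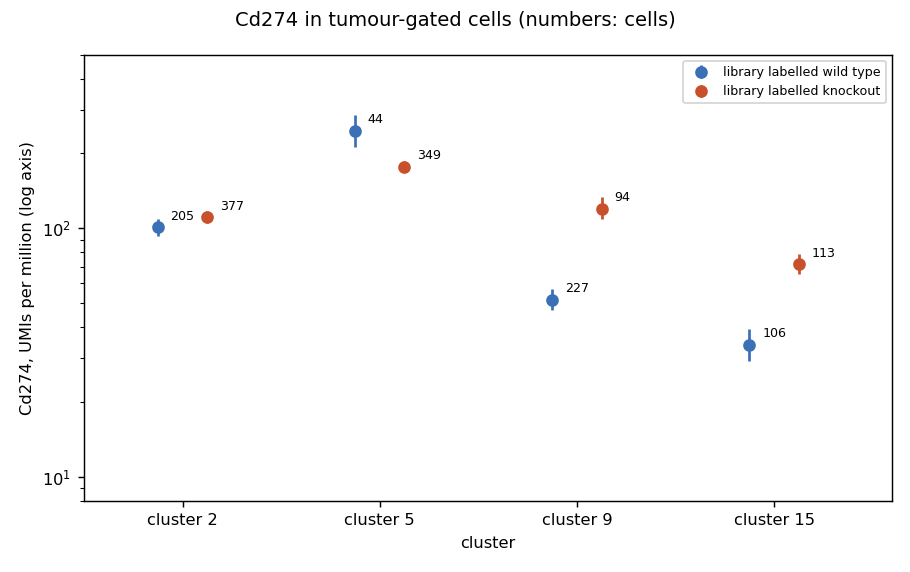
Cd274 level in tumour-gated cells in UPM (log axis) by cluster, for clusters found without the 9 genes; blue is the wild type label, orange the knockout label, bars are exact Poisson 95% intervals and the numbers are cells. The order of the libraries differs between cluster 9 (51.6 and 120) and cluster 5 (247 and 177).

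Summed over all kept cells, several members differed more than within their classes. Pdcd1 stood at 18.4 and 29.0 UPM of all UMIs (ratio 1.58, 1.46 to 1.70), and at 152 and 154 within all T-gated cells (1.01, 0.936 to 1.09), which numbered 590 and 1513. Ctla4 was 134 and 240 over all cells (1.79, 1.75 to 1.84) and 1047 and 1210 within T-gated cells (1.16, 1.12 to 1.19). Lag3 was apart at both levels: 23.1 and 46.9 over all cells (2.03, 1.90 to 2.16) and 98.6 and 155 within T-gated cells (1.57, 1.43 to 1.72). By T subset the Lag3 ratio was 1.87 in CD8, 1.27 in CD4 conventional, 1.21 in regulatory and 1.18 in other T-gated cells. The intervals of the regulatory and other T ratios included equal levels. CD4 conventional T-gated cells, the subset highest in Lag3, numbered 124 and 481. Ctla4 ratios ran from 0.886 (regulatory) to 1.16 (other T). The part of the subset mix in the T-gated ratios was not tested. Cd86 was 435 and 434 over all cells and 1339 and 1388 within the macrophage gates.

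Other genes of the same pathways were taken from lists chosen with the members. Of 15 transcription factors of exhausted and progenitor T cells, all 15 were measured in CD8 T-gated cells and 0 were 1.5-fold apart. No test was possible. Over all genes measured in that class 4.67% were that much higher and 4.01% lower, so 0 of 15 is near those shares. The same shares apply to the other list counts of CD8 T-gated cells below. Tox stood at 408 and 450 UPM (1.10, 1.03 to 1.18) and Eomes at 38.1 and 26.0 (0.681, 0.526 to 0.883). Of 13 other inhibitory receptors 9 were measured there: Cd244a (2B4) was higher (42.7 and 64.1; 1.5, 1.22 to 1.86), Cd200r1 was lower (57.5 and 29.3; 0.509, 0.406 to 0.637), and Klrc1 (184 and 242) and Cd160 (157 and 131) were between. Of 9 other ligands of the receptors 4 were measured in CD8 T-gated cells, and Lgals3, the gene of galectin-3, was higher (176 and 383; 2.17, 1.97 to 2.40). Of 12 costimulatory genes 7 were measured and 0 were 1.5-fold apart; Cd28, the activating partner that shares CD80 and CD86 with CTLA-4, stood at 293 and 258. Of 10 signalling genes all were measured and 1, Trat1, was lower (16.6 and 7.97; 0.480, 0.310 to 0.742). In tumour-gated cells Pvr, the main TIGIT ligand, stood at 26.5 and 23.3 and Cd47 at 257 and 356 (1.39, 1.34 to 1.43). Among tumour checkpoint genes 1 of 4 measured was lower there, Nt5e (2.99 and 1.22; 0.409, 0.265 to 0.625). Of 12 costimulatory genes 8 were measured in tumour-gated cells and 6 were higher and 0 lower, none above 5.36 UPM. In this class 12.9% of genes were higher and 8.04% lower. The T cell and monocyte/macrophage panels given above for this class moved the same way, and the microglia, mature dendritic and oligodendrocyte panels the other way. The part of these panels was not tested. In regulatory T-gated cells 5 of 10 measured genes of the interferon gamma list were higher and 0 lower, where 7.80% of genes were higher and 5.93% lower, among them Cxcl10 (30.4 and 126; 4.15, 2.68 to 6.79). The monocyte/macrophage panel of these cells moved from 56.5 to 96.8 UPM, with 2 and 0 of 8 markers at 0 UMIs. Other panels moved the other way, among them mature dendritic (99.9 to 78.2), oligodendrocyte (91.2 to 41.8) and B cell (21.7 to 9.47). The part of any panel was not tested.

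For each member the genes with the most similar levels over 30 points, each of the 15 classes in 2 libraries, were sought among 16211 genes; classes of 1 library share depth and free RNA, so the Pearson correlations are a description. Pdcd1 went with Cd3d (0.944), a gate marker, and with Traj27 and Traj18, segments of the T cell receptor alpha locus. Tigit went with Zap70 (0.984), the kinase of the T cell receptor, Gm27162 and Arnt2, and Ctla4 with Chd3 (0.939), Zbtb25 and Cd2. Havcr2 went with Slfn1 (0.877), Twf2 and Cysltr1, and Lag3 had the lowest top value with Cd200r1 (0.856), followed by Gm2245 and Pnpla6. Cd274 was most like Gm36043 (0.922), a gene of the minus strand that lies inside the Cd274 interval at 29373417 to 29384471 on chromosome 19, so that reads of both cannot be told apart without strand; Atp2b1 (0.843) and Gyg followed. Pdcd1lg2 went with Nr4a3 (0.916), Ric1 and Myh9, and Ric1 (0.881) lies 51.1 kb from it on chromosome 19. Cd80 was most like Bcl2a1b (0.939), Bcl2a1d and Mcl1, genes of BCL2-family survival proteins, and Cd86 most like Spi1 (0.932), the myeloid transcription factor PU.1, Irf5 and Cd83.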

How the data were processed

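Droplet single-cell RNA profiles of 2 libraries were used, labelled wild type and knockout, with 1 per group. The authors deposited sparse matrices of raw UMI counts, whose headers name Cell Ranger 7.1.0; the submitters' processing notes also name Seurat 5.0.2, with no role, and the build mm10. Libraries were prepared with the 10x Genomics 3' kit after enzymatic dissociation, per the labels' protocols. The deposited matrices held 7382 and 8369 barcodes and 54567114 and 103281480 UMIs; human genes of the combined reference (10781 and 20272 UMIs) were left out.

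A barcode was kept if it had 500 or more mouse genes and no more than 10% of UMIs from mitochondrial genes. A cell passed a lineage gate when it had UMIs of a set number of panel markers (3 of 5 for T cells, 4 of 8 for tumour); cells passing several gates were set aside, and T and macrophage cells were divided by Cd8a and Cd8b1, Cd4, Foxp3, and by Mmp12-group, Arg1 and Ly6c2-group markers. Near the gates, 77 and 159 of 650 and 1719 cells passing the T cell gate had exactly 3 markers and 37 and 106 cells had 1 fewer. Gates and clusters gave like cell numbers in most classes. However, the microglia gate held 100 and 394 cells and its clusters 42 and 173, with 38 and 164 cells in both. The other macrophage gate held 208 and 274 and its clusters 252 and 448. UMIs were summed per class and library and scaled to 1000000 (UPM), and a ratio, with its exact conditional binomial interval, was called by size alone at 1.5-fold where at least 50 UMIs were found; 3 counts stood for 0. Shares were also computed after thinning each cell to 2000 or 5000 UMIs. Doublets were not removed in the main values; the expected number by Scrublet (77 and 346 cells, where the automatic threshold marked 0.289% and 2.49%) was removed in an alternative. The ratio and its interval were tested on simulated counts. Scripts ran in Python 3.11.15 with scanpy 1.11.5 and leidenalg 0.10.2 for clusters and scipy 1.17.1 for intervals.

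The members and gene lists were chosen with earlier results of these data known. 1 listed gene is not reported here. All 9 members are described in all 15 classes; from another list, a gene is named in a class where it has at least 50 UMIs and is among the 3 with the largest absolute log2 ratio or the 2 with most UMIs of its list, and for each member the 3 genes most alike are named by the correlation of log2(UPM + 1). Alternatives were other cell filters (200 genes and 20%, 1000 genes and 5%), doublets removed, 1 more marker per gate, Leiden clusters made without the members, cells weighted alike, Y-linked-positive cells alone, a minimum of 20 UMIs and thinning. Xist-positive cells alone and leaving out the top cell were chosen after seeing the data.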

Additional observations from a re-analysis of the deposited data

Results flagged for a closer look

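Each result here is a gene that was at least 1.5-fold higher in some classes and at least 1.5-fold lower in others under the knockout label, with both intervals excluding equal levels. With 1 library per group the difference between classes was not tested, and the values are log2 ratios.

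Lag3 was higher in CD8 T-gated (0.90), NK-gated (0.92) and tumour-gated cells (1.01) and lower in Mmp12 macrophage-gated (-1.23) and Arg1 macrophage-gated cells (-1.49). The tumour-gated value rests on 14 and 41 Lag3 UMIs, in cells that serve as the background of free RNA for the receptors. In thinned NK-gated cells the shares with a Lag3 UMI, given above, were alike. Havcr2 was higher in CD8 T-gated cells (0.61) and lower in regulatory T-gated (-0.71) and other T-gated cells (-0.67). Pdcd1lg2 was higher in type 1 dendritic-gated (0.70), other macrophage-gated (0.84) and microglia-gated cells (1.21) and lower in Arg1 macrophage-gated cells (-0.88). Cd80 was higher in B-gated cells (1.20) and lower in CD4 conventional T-gated cells (-1.84). Cd86 was higher in regulatory T-gated (1.18), NK-gated (0.60) and tumour-gated cells (1.55) and lower in CD4 conventional T-gated (-1.48) and other T-gated cells (-1.52). For Cd86 in NK-gated cells 5 of 9 alternatives gave less than 1.5-fold, down to 0.07, and without the top cells the value in other T-gated cells was -0.41. Within the knockout label Cd86 in regulatory T-gated cells was 91.2 UPM in Xist-positive and 4.89 in Y-linked-positive cells, against 34.8 under the wild type label.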

How the results depend on the processing

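The number of receptor and class pairs at least 1.5-fold apart was 9, and it was 14 with classes taken from clusters and 17 with a minimum of 20 UMIs. The number of ligand pairs was 16, and 9 with cells thinned to 5000 UMIs, where 49 pairs could be measured. Under every other alternative both counts lay within 1.5 times of these. Of the 25 pairs apart, 19 kept their direction under all alternatives with a value. The direction turned with classes from clusters for Havcr2 in other T-gated (0.18), Cd86 in other T-gated (1.01), Lag3 in Arg1 macrophage-gated (0.43) and Pdcd1lg2 in other macrophage-gated cells (-0.64). It also turned with doublets removed for Cd86 in other T-gated cells (0.14), with 1 more marker per gate for Cd274 in plasmacytoid dendritic-gated cells (-0.60), and among Y-linked-positive cells for Ctla4 in type 1 dendritic-gated (-0.43) and Pdcd1lg2 in other macrophage-gated cells (-1.36); values are log2 ratios and the cause was not tested. With Y-linked-positive cells alone 44 of 79 pairs moved beyond their counting interval, the most of any alternative. No paired analysis was possible because each group has 1 library.

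Depth and cell number set what could be seen: wild type B-gated cells numbered 52 and plasmacytoid dendritic-gated cells 55. Animals cannot be separated within a library, UMIs of few cells can carry a class total, and transcript levels do not measure surface protein.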

Other observations

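Type 1 dendritic-gated cells also differed in genes outside the 9 checkpoint genes, on the list of the interferon gamma pathway. There 3 of the 10 genes measured were higher by 1.5-fold or more and 1 was lower, against 6.25% and 5.93% of all genes in that class. Cxcl9, a chemokine that draws CXCR3-positive T cells, stood at 130 and 1060 UPM (ratio 8.15, 7.26 to 9.16), Cxcl10 at 28.5 and 123 (4.32, 3.34 to 5.67) and Irf1 at 58.5 and 124 (2.12, 1.74 to 2.59). Irf1 falls outside the naming rule in this class and was named after its value was seen. The lower gene was Cmtm4, which encodes a protein that stabilises PD-L1 (15.8 and 5.94; 0.375, 0.193 to 0.694). The monocyte/macrophage panel of this gate moved from 136 to 212 UPM, with 0 of 8 markers at 0 UMIs, and its part was not tested. Cd274 in the same cells stood at 202 and 230 UPM. The costimulatory receptor Cd40 was higher in type 1 dendritic-gated (39.9 and 91.0), mature dendritic-gated (141 and 335, where the monocyte/macrophage panel moved from 63.1 to 205) and Arg1 macrophage-gated cells (52.5 and 116).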
